A study of Glycine max with 4 samples.

Results

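The entry into phenylpropanoid metabolism was described in soybean (Glycine max) roots through 10 genes, 8 encoding phenylalanine ammonia-lyase (PAL) and 2 encoding cinnamate 4-hydroxylase (C4H). They were chosen by a fixed list of gene identifiers out of 47973 genes listed in at least 1 library. All 10 were found, and all 10 passed the filter on low counts. Messenger RNA was sequenced from roots of Ri plants, a transgenic line in which GmHAD1-2 was suppressed (2 libraries), and of wild-type (WT) plants (2 libraries). Both genotypes were kept for 12 days in nutrient solution with phosphate as KH2PO4, at a stated 250 mM (an unusually high figure, since such solutions are commonly made in the micromolar range). The design text calls the libraries of a genotype biological replicates. The promoter and number of independent transformants behind the Ri plants, the number of plants per library and any sequencing batch were not given in the sources used here. GmHAD1-2 and root marker genes are not analysed here, since no identifier could be tied to a product name, so neither the suppression nor the tissue label was checked.

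PAL removes the amino group of phenylalanine to give trans-cinnamate. C4H, a cytochrome P450 of the endoplasmic reticulum that draws electrons from a NADPH-dependent reductase, then hydroxylates cinnamate to p-coumarate. The product, once bound to coenzyme A, feeds lignin of the root vascular tissue and also the flavonoids and isoflavonoids, which in legume roots serve as signals to rhizobia and as precursors of defence compounds such as glyceollins. Both enzymes are encoded by several genes in soybean, an ancient polyploid, so the level of each copy and the total of the copies are separate quantities.

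The libraries held 10077854 to 11070260 expected counts, the estimated numbers of fragments per gene that the authors deposited. The Ri replicates differed from each other more than the WT replicates did. Over 20250 tested genes with a mean of at least 8 CPM (counts scaled to library size, with TMM factors), the SD of the log2 difference between replicates was 0.58 in Ri and 0.31 in WT. Each result below is therefore given by library. In bulk roots, fewer cells that express a gene and less RNA per cell cannot be told apart.

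The deposited counts show which copies shared fragments that counting had to divide, but not how many such fragments there were. Of the 10 genes only Glyma.02G309300.Wm82.a2.v1, a PAL gene of chromosome 2, carried expected counts that were whole numbers (within 0.02) throughout, at 26 and 45 in Ri and 73 and 78 in WT. Among the 45 possible pairs of the 10 genes, 3 added up to whole numbers in every library. The first was the PAL pair Glyma.10G058200.Wm82.a2.v1 (chromosome 10) and Glyma.13G145000.Wm82.a2.v1 (chromosome 13), which summed to 2116 and 6499 counts in Ri and 3871 and 3190 in WT. The second was the PAL pair Glyma.20G180800.Wm82.a2.v1 (chromosome 20) and Glyma.10G209800.Wm82.a2.v1 (chromosome 10), and the third was the C4H pair Glyma.02G236500.Wm82.a2.v1 (chromosome 2) and Glyma.14G205200.Wm82.a2.v1 (chromosome 14). Among the triples, 1 that held no smaller whole set did the same, made up of the PAL genes Glyma.19G182300.Wm82.a2.v1 (chromosome 19), Glyma.03G181600.Wm82.a2.v1 and Glyma.03G181700.Wm82.a2.v1 (chromosome 3, with consecutive identifiers). All 10 genes thus fell into 5 sets, and within the 4 sets of more than 1 gene the split between copies was estimated by the authors' counting. Sums over a set do not depend on that split. Of all tested genes 14.6% had whole counts in every library by the same tolerance.

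A single PAL copy made up most of the PAL transcript level. Levels of copies were ranked in FPKM, the authors' fragment values scaled by gene length and library depth, which allows genes of different length to be compared. Glyma.10G058200 was at 75.4 and 207 FPKM in Ri replicates 1 and 2 and at 125 and 103 FPKM in WT replicates 1 and 2. By its mean it ranked 613 of the 47973 genes. The next copy, Glyma.13G145000, was at 4.75 and 16.8 FPKM in Ri and 13.2 and 11.4 FPKM in WT. The mean level of Glyma.10G058200 was 11-fold above that of Glyma.13G145000, and the ranges of these 2 copies over the 4 libraries did not overlap. Both belong to the same set, so this ratio depends on the estimated split of their shared fragments.

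The other 6 PAL copies were low. Glyma.19G182300 held the third place in every library, at 2.02 and 5.78 FPKM in Ri and 8.52 and 6.26 FPKM in WT. Below it came Glyma.20G180800 (1.72 to 4.74 FPKM over the 4 libraries), Glyma.02G309300 (1.07 to 3.04 FPKM), Glyma.10G209800 (0.75 to 2.34 FPKM) and Glyma.03G181700 (0.67 to 2.10 FPKM). These 4 changed places between libraries, each standing above the next of the 4 in 3 of the libraries, so their order is not fixed beyond the spread. Glyma.03G181600 was last in every library, at 0.11 and 1.12 FPKM in Ri and 1.04 and 0.60 FPKM in WT. Its value in Ri replicate 1 rests on 2.70 expected counts, under the 3 counts taken as the floor of a library (0.306 CPM there). From the second place down, the range of each PAL copy overlapped that of its neighbour, although the first 3 places and the last were the same in all 4 libraries.

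**Figure D1:**
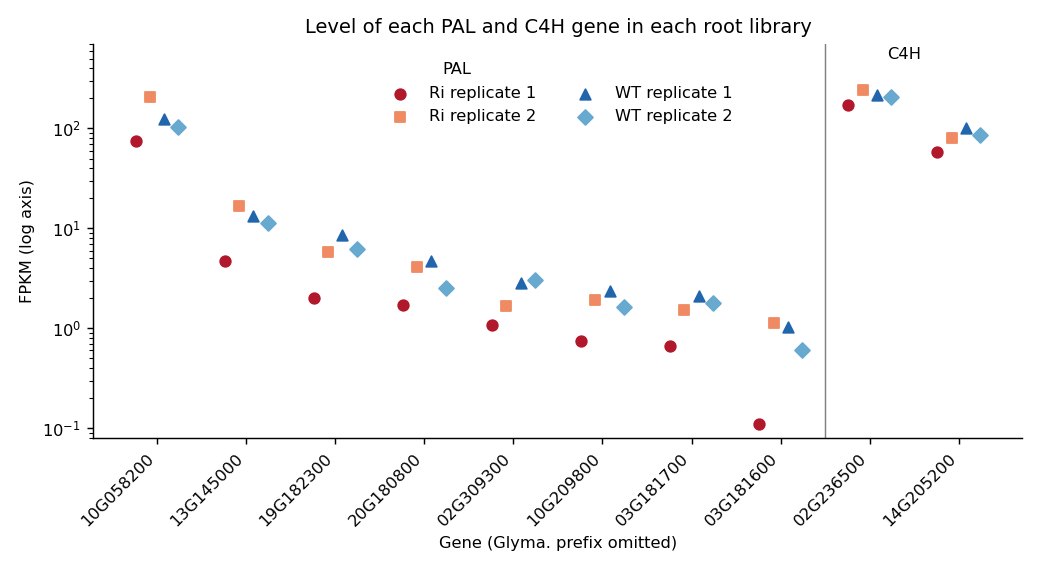
FPKM (log axis) of the 8 PAL and 2 C4H genes in each of the 4 root libraries, with genes ordered by mean level within each enzyme. Glyma.10G058200 lies far above the other PAL genes, and Ri replicate 1 is the lowest point for all 10 genes.

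Both listed C4H copies were abundant. Glyma.02G236500 was at 172 and 244 FPKM in Ri and at 218 and 206 FPKM in WT, and by its mean it ranked 285 of 47973 genes. Glyma.14G205200 was at 58.0 and 80.8 FPKM in Ri and 101 and 86.3 FPKM in WT, rank 1161 by its mean. Their ranges did not overlap, and the mean of the first was 2.58-fold above that of the second, a ratio that also depends on the estimated split. Both C4H copies stood above every PAL copy other than Glyma.10G058200 in all 4 libraries.

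The summed level of the PAL copies was 86.4 and 240 FPKM in Ri and 160 and 130 FPKM in WT. The Ri mean was 163 ± 109 FPKM and the WT mean 145 ± 21.0 FPKM (SD, n = 2 each), and their ratio of 1.13 was well within the spread of Ri. The 2 Ri libraries lay on opposite sides of WT, at 0.597 and 1.66 times the WT mean. Summed C4H was 230 and 325 FPKM in Ri and 319 and 292 FPKM in WT, with means of 277 ± 67.2 FPKM in Ri and 305 ± 18.4 FPKM in WT (SD, n = 2 each) and a ratio of 0.907. Summed C4H exceeded summed PAL in every library, by 2.66 and 1.35 times in Ri and by 2.00 and 2.25 times in WT. These totals, and the shares below, cover the listed genes only. The reference annotation names a C4H1 gene on chromosome 20, where no listed C4H gene lies, so the C4H total may be incomplete. The FPKM totals are given without a test. For the summed counts of the C4H pair edgeR gave a log2 fold change of -0.15 (95% interval -0.83 to 0.54, adjusted p = 0.958).

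No PAL or C4H gene passed the threshold between Ri and WT. In edgeR's quasi-likelihood test over 34151 genes (Benjamini-Hochberg adjusted p under 0.05) 0 of the 10 were called, against 0.117% of all tested genes called lower and 0% called higher in Ri. At an unadjusted p under 0.05 the number was 1 of 10, against 6.25% of all tested genes. DESeq2 also called 0 of the 10. Of its 35839 genes with an adjusted p, 0.739% were called lower and 0.1% higher. In DESeq2, 1 of the 10 had an unadjusted p under 0.05, against 1526 of 47915 genes. Fitted log2 fold changes were below 0 for 9 of the 10 genes, with a median of -0.43 over the 10 and 0.02 over all tested genes. For the summed sets they were below 0 in 4 of 5. This lean depended on the Ri library kept. Without Ri replicate 1, 5 of the 10 genes were below 0, with a median of 0.04. Without Ri replicate 2, 10 of the 10 were, with a median of -1.35.

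The gene with the smallest p was the uniquely counted PAL copy Glyma.02G309300. It was at 2.65 and 3.96 CPM in Ri and at 6.71 and 7.51 CPM in WT, so the genotypes did not overlap. Its log2 fold change was -1.10 (standard error 0.32, 95% interval -1.88 to -0.32), and edgeR gave an unadjusted p of 0.0135 and an adjusted p of 0.572. This order of groups was seen in 4 of the 10 genes (Glyma.02G309300, Glyma.19G182300, Glyma.03G181700 and Glyma.14G205200), against 18.5% of all tested genes, and the opposite order in 0, against 17.7%. For the other 6 genes the groups overlapped.

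The intervals show how little the design can exclude. For the main PAL copy, Glyma.10G058200, the log2 fold change was 0.29 with a 95% interval of -0.83 to 1.41 (edgeR adjusted p = 0.946), which includes 0 and an increase of more than 2-fold. The main C4H copy, Glyma.02G236500, was measured more tightly, at -0.04 with an interval of -0.70 to 0.61 (edgeR adjusted p = 0.989). For the second C4H copy, Glyma.14G205200, the log2 fold change was -0.44 with an interval of -1.01 to 0.13 (edgeR adjusted p = 0.854). Among the 6 PAL copies other than Glyma.10G058200 and Glyma.02G309300 the estimates ran from -0.21 for Glyma.13G145000 to -0.93 for Glyma.19G182300, all with intervals that included 0. When the copies of each set were summed before the fit, 0 of the 5 sets passed, the smallest edgeR adjusted p staying at 0.572.

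**Figure D2:**
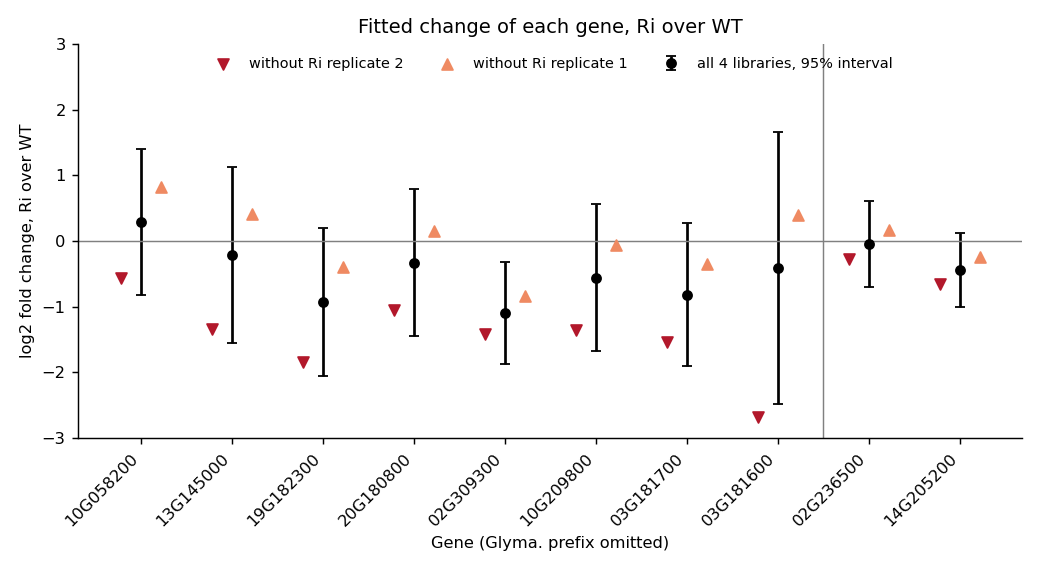
Log2 fold change of each gene, Ri over WT, from edgeR with all 4 libraries (black, with 95% interval) and with either Ri library left out. The interval of Glyma.02G309300 alone lies wholly below 0, and the estimates without Ri replicate 2 lie below those without Ri replicate 1 for all 10 genes.

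Ri replicate 1 lay below Ri replicate 2 in all 10 genes, against 49.9% of all tested genes. It was the lowest of the 4 libraries for 10 of 10 genes, against 28.6% of all tested genes. Its log2 CPM minus the mean of the WT libraries ran from -1.73 to -0.27, with a median of -1.23, and 6 of the 10 genes were more than 2-fold lower, against 4.44% of tested genes. Ri replicate 2 lay above both WT libraries for 4 of the 10 genes, against 37.6% of tested genes. In these 4 genes the Ri replicates lay on either side of WT, against 11.8% of tested genes. They were Glyma.10G058200, Glyma.13G145000, Glyma.03G181600 and Glyma.02G236500. Its differences from the WT mean ran from -0.77 to 0.83, with a median of 0.05. For 0 of the 10 genes was Ri replicate 2 more than 2-fold below WT, against 2.63% of tested genes. Set against each other, Ri replicate 1 was more than 2-fold below Ri replicate 2 in 6 of the 10 genes, against 6.54% of tested genes.

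**Figure D3:**
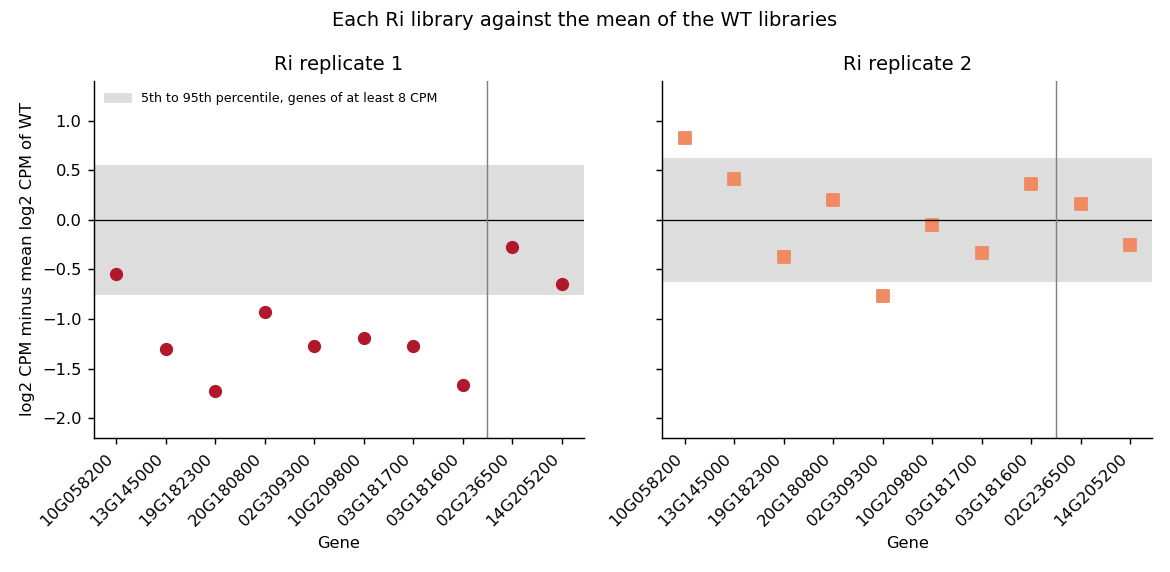
Log2 CPM of each gene in Ri replicate 1 (left) and Ri replicate 2 (right) minus the mean log2 CPM of the WT libraries. The grey band is the 5th to 95th percentile of 20250 tested genes of at least 8 CPM. All 10 genes are below 0 in Ri replicate 1 and 5 of 10 in Ri replicate 2.

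Between replicates the sets differed by more than counting error in both genotypes, in 4 of 5 sets in Ri and in the same 4 in WT. In these 4 sets the ratios were farther from 1 in Ri. Other genes were not examined in this way, and counting error shrinks as counts rise. The 4 of 5 therefore cannot be called particular to these sets. The main PAL set (Glyma.10G058200 and Glyma.13G145000) was at 216 and 572 CPM in Ri and at 356 and 307 CPM in WT. Ri replicate 1 had 0.377 times the level of Ri replicate 2 in this set (exact binomial 95% interval 0.359 to 0.397, which covers counting error only), and WT replicate 1 had 1.16 times that of WT replicate 2 (1.11 to 1.21). The set of Glyma.19G182300, Glyma.03G181600 and Glyma.03G181700 was at 7.04 and 20.2 CPM in Ri and at 28.1 and 21.8 CPM in WT, with a ratio of Ri replicate 1 to Ri replicate 2 of 0.349 (0.263 to 0.459) and of WT replicate 1 to WT replicate 2 of 1.29 (1.09 to 1.54). For Glyma.20G180800 and Glyma.10G209800 together the ratio was 0.429 in Ri (0.326 to 0.558) and 1.63 in WT (1.31 to 2.02). The C4H set had 458 and 614 CPM in Ri and 606 and 582 CPM in WT, a ratio between replicates of 0.746 in Ri (0.719 to 0.775) and 1.04 in WT (1.01 to 1.08). For Glyma.02G309300 both intervals included 1, at 0.670 in Ri (0.397 to 1.11) and 0.894 in WT (0.640 to 1.25).

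**Figure D4:**
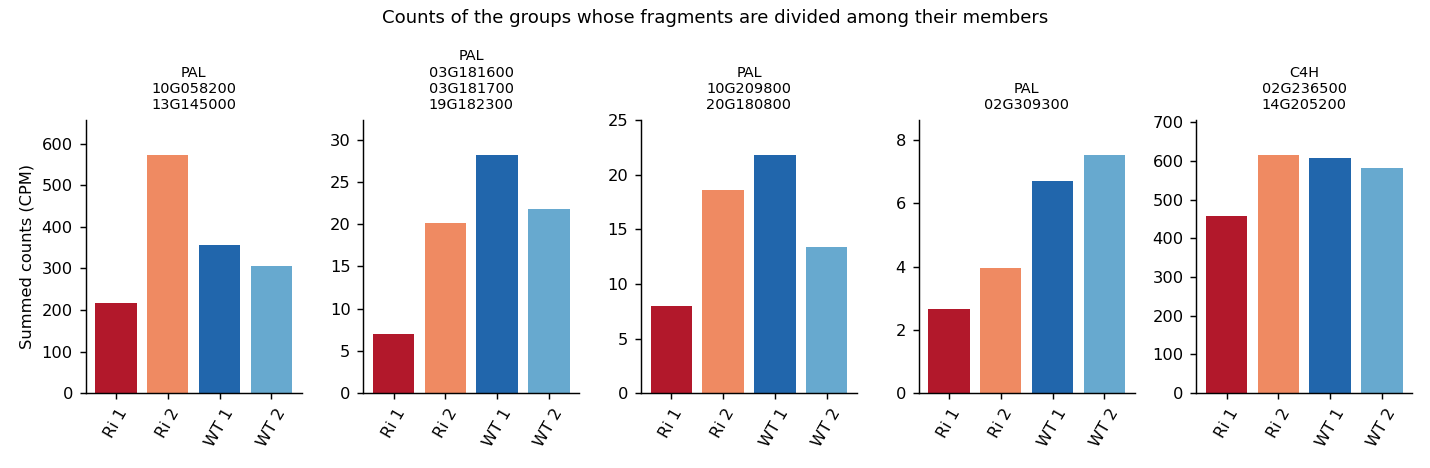
TMM-scaled CPM of the 5 sets of genes whose fragments were divided only among their own members, by library, each panel on its own axis from 0. Ri replicate 1 is the lowest bar in every panel, and Ri replicate 2 is the highest in the panels of the main PAL set and of C4H.

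Ri replicate 1 had the lowest total of expected counts and listed the most genes, 44830 against 41921 to 42618 in the other libraries; the part of these features in the low PAL and C4H values was not tested. The 10 genes are 1862 to 3209 bases long, and the 8560 tested genes of 1800 to 3300 bases and at least 8 CPM had a median log2 difference of -0.03 between Ri replicate 1 and the WT mean. The median was 0.12 for the 2060 genes of under 1000 bases and -0.10 for the 2563 genes of over 3300 bases. Between Ri replicate 2 and the WT mean the medians lay farther apart. They were 0.24 for the genes under 1000 bases, -0.08 for those of 1800 to 3300 and -0.23 for those over 3300.

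Whether a copy differed between genotypes depended on which Ri library was kept. Without Ri replicate 2, edgeR called 3 of the 10 genes lower in Ri, and 0 higher, against 2.78% and 1.79% of all tested genes. They were Glyma.19G182300 (log2 fold change -1.84, adjusted p = 0.00135), Glyma.13G145000 (-1.34, adjusted p = 0.00177) and Glyma.02G309300 (-1.42, adjusted p = 0.0454). Without Ri replicate 1 the edgeR test called 0 of the 10, against 3.26% of tested genes higher and 2.39% lower, and the fold change of Glyma.13G145000 was 0.42. In both fits the lone Ri library was assumed to vary like the WT libraries.

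The shares of the main copies were close between replicates. Glyma.10G058200 made up 87.2% and 86.2% of summed PAL FPKM in the Ri libraries and 78.2% and 79.0% in the WT libraries. The Ri libraries thus differed by 1 percentage point in this share while their summed PAL level differed by more than 2-fold. Glyma.19G182300 took 2.34% and 2.41% of summed PAL in Ri and 5.34% and 4.82% in WT. Glyma.02G236500 took 74.8% and 75.1% of summed C4H in Ri and 68.4% and 70.5% in WT. In each of these 3 shares the genotypes did not overlap. Shares of the same sum are tied, since a higher share of 1 copy lowers the others, so they are not separate observations. Not every share was so steady: that of Glyma.02G309300 was 1.24% and 0.704% in Ri and 1.78% and 2.34% in WT, a larger fold between replicates than that of its FPKM. The genotypes overlapped in the share of Glyma.20G180800 (1.99% and 1.72% in Ri, 2.97% and 1.96% in WT). They also overlapped in that of Glyma.03G181600 (0.127% and 0.466% in Ri, 0.652% and 0.462% in WT). Such shares were not computed for other genes.

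Taken relative to Glyma.10G058200, all 7 other PAL copies were lower in both Ri libraries than in both WT libraries, and 0 were higher. Of all tested genes set against the same gene, 8.55% were lower and 2.69% higher by this rule. This ratio does not depend on how libraries are scaled. The 7 ratios share a denominator and are therefore not independent, and the pattern was chosen after its values were seen. The difference of the log2 ratio, Ri minus WT, was -1.24 for Glyma.19G182300 (SD 0.04 in Ri and 0.12 in WT, n = 2 each). It was -1.07 for Glyma.03G181700 (SD 0.18 and 0.03), -0.84 for Glyma.10G209800 (SD 0.06 and 0.16) and -0.60 for Glyma.13G145000 (SD 0.26 and 0.05). For Glyma.20G180800 it was -0.52 (SD 0.13 and 0.43), with Ri replicate 1 at -5.15 close to WT replicate 2 at -5.02. For Glyma.02G309300 it was -1.27 (SD 0.57 and 0.27). For Glyma.03G181600 it was -1.32 with an SD of 1.34 in Ri, a value that rests on the 2.70 counts of Ri replicate 1.

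Summed sets, which are free of the division of fragments, gave the same order. Their shared denominator, the main PAL set, is mostly Glyma.10G058200 (91.8% of its FPKM on average). They thus largely restate the ratios above, and the share of all genes with this order against the main set was not computed. Per 100 counts of the main PAL set, the set of Glyma.19G182300, Glyma.03G181600 and Glyma.03G181700 had 3.26 and 3.52 counts in Ri and 7.91 and 7.08 counts in WT. The set of Glyma.20G180800 and Glyma.10G209800 had 3.69 and 3.25 counts in Ri and 6.12 and 4.36 counts in WT. Glyma.02G309300 had 1.23 and 0.692 counts in Ri and 1.89 and 2.45 counts in WT. In C4H the log2 ratio of Glyma.14G205200 to Glyma.02G236500 was -1.64 and -1.67 in Ri and -1.19 and -1.33 in WT. A ratio to Glyma.02G236500 that was lower in both Ri libraries was found in 11.6% of all tested genes, and a higher one in 17.2%. The smallest exact two-sided permutation p of any one of these ratios is 0.333, and no other test of these ratios was run.

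**Figure D5:**
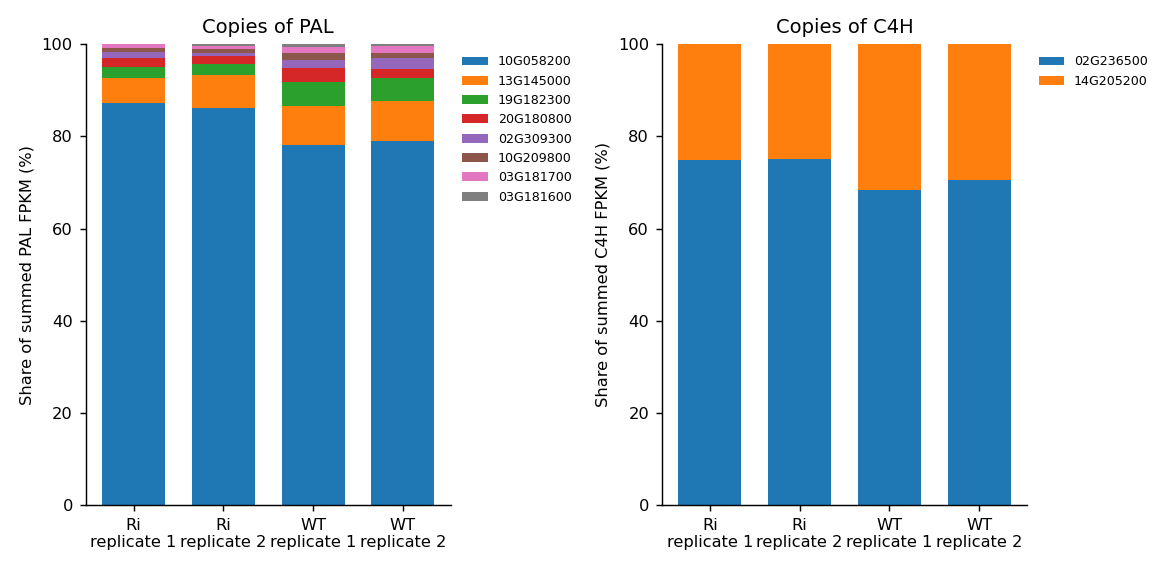
Share of each copy in the summed FPKM of PAL (left) and of C4H (right) in each library. Glyma.10G058200 takes 87.2% and 86.2% of PAL in Ri and 78.2% and 79.0% in WT, and Glyma.02G236500 takes 74.8% and 75.1% of C4H in Ri and 68.4% and 70.5% in WT.

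Copies were also compared by their profile over the 4 libraries, as the root-mean-square difference of log2 CPM after each gene was centred on its own mean. This is a description over 4 libraries and 20249 other genes of at least 8 CPM. Glyma.02G309300, Glyma.10G209800, Glyma.03G181700 and Glyma.03G181600 themselves had a mean under 8 CPM, so counting error weighs more in their profiles. Glyma.13G145000 was the PAL copy most like Glyma.10G058200, at 0.32, and 7.17% of the genes compared were closer. Glyma.20G180800 followed at 0.34 (8.90% closer) and the C4H gene Glyma.02G236500 at 0.36 (11.3% closer), whereas Glyma.02G309300 was least like it at 0.67 (81.1% closer). The third closest of these 20249 genes was at 0.05, but no such gene has a name in the sources used here. The C4H copies differed by 0.20 from each other, and 34.7% of genes were closer to Glyma.02G236500 than Glyma.14G205200 was. Seen from Glyma.02G236500, the 0.36 to Glyma.10G058200 was above the 0.25 of the median gene, and 79.8% of genes were closer. These C4H copies form 1 set, as do Glyma.10G058200 and Glyma.13G145000. Likeness within a set depends on the estimated split of shared fragments, and the part of that split was not tested. Among the 10 genes the closest pair was Glyma.03G181700 and Glyma.10G209800, at 0.14, which lie in different sets, while the neighbouring Glyma.03G181600 and Glyma.03G181700 differed by 0.42. The profile of Glyma.03G181600 includes the 2.70 expected counts of Ri replicate 1, under the floor.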

How the data were processed

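Per the labels' protocols, root RNA came from a Trizol extraction and was made into libraries with a BGI kit. Per the submitters' processing notes, RSEM, HISAT and Bowtie2 were used. For these tools no role or setting, and no use of strand, is given in the sources used here. Each library has 1 table, in which the authors deposited an expected count per gene (estimated fragments that need not be whole), an FPKM value made by the authors from length and depth, and the gene length, per the file headers. A gene not listed in a table was taken as 0. Identifiers are mostly printed without their shared ending, Wm82.a2.v1, the second assembly of cultivar Williams 82, and a chromosome is the number the identifier carries.

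Expected counts were rounded and tested with edgeR 4.0.16 (R 4.3.3): quasi-likelihood F-test, TMM scaling, default filter (34151 genes), robust estimation, genotype as the only term, p-values adjusted over all genes by Benjamini-Hochberg, threshold 0.05. Standard errors are the fold change over the square root of F. CPM use TMM-scaled totals, with 0.5 added before log2. Depth was 10077854 to 11070260 counts per library, and 3 counts, the floor, correspond to 0.264 to 0.306 CPM. Intervals on counts and floors cover counting error only. Alternatives were other scalings and filters, limma 3.58.1 (voom, or FPKM as log2(FPKM + 1) and log2(FPKM + 0.1)), DESeq2 1.42.0, a replicate block, summed sets of copies, and each library left out. The fits were tested on simulated data.

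The 10 genes, their enzyme names and all lists were chosen with earlier results of these data known. All 10 are named. Other pathway genes and cell type markers were to be named by product, but 0 of 47973 identifiers matched the reference table (Glycine_max_v4.0, 59048 genes), so those lists were not run, and no sequence is shown. The names PAL and C4H rest on the list that chose the 10 genes: nothing in the deposited tables or the reference table annotates these identifiers.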

Additional observations from a re-analysis of the deposited data

How the results depend on the processing

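With all 4 libraries, the 10 fold changes kept their sign and stayed short of the threshold in all 110 values from 11 alternatives, and 0 of 10 genes were called in each. Over the whole table edgeR called 40 genes, against 0 with library totals only (2131 at an unadjusted p under 0.05), 12 with upper-quartile factors and 164 without a filter. DESeq2 called 301, and limma called 0 on voom values (2069 at an unadjusted p under 0.05), 0 on log2(FPKM + 1) (2227) and 0 on log2(FPKM + 0.1) (2198). A replicate block gave 107 calls in edgeR. The labels tie no replicate numbers across genotypes. Across 20248 genes the replicate differences of Ri and WT were correlated at -0.32. With 1 difference per genotype this value cannot show whether the samples were paired. With the numbers crossed, an alternative chosen after seeing the data, the block gave 68 calls. Leaving out 1 library gave 0 to 1994 calls over the table (0 without WT replicate 1 and 0 without WT replicate 2, with 795 and 991 at an unadjusted p under 0.05) and 0 to 3 of the 10 genes. In those fits the log2 fold change ran from -0.56 to 0.83 for Glyma.10G058200, -1.34 to 0.42 for Glyma.13G145000, -1.84 to -0.39 for Glyma.19G182300, -2.68 to 0.40 for Glyma.03G181600, -1.06 to 0.15 for Glyma.20G180800, -1.42 to -0.84 for Glyma.02G309300 and -0.28 to 0.16 for Glyma.02G236500. Their cause was not tested. Under the other units tried, summed levels moved by less than the larger within-genotype SD. For PAL that SD was wide (109 FPKM in Ri, beside a WT mean of 145 FPKM), so this check could hardly fail. Shares of the main copies moved by less than the SD over the 4 libraries. That of Glyma.02G236500, 72.2% in FPKM and 73.2% in expected counts, moved by more than its SD within Ri. All 7 ratios to Glyma.10G058200 stayed lower in Ri in FPKM and in expected counts. Scaling of libraries and genes cancels in the order of such ratios, so this outcome was largely fixed in advance and adds no support. Depth limits Glyma.03G181600 most.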
